A study of Callosobruchus maculatus with 24 samples.

Results

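A set of 66 genes was strongly male-biased in both body parts of the seed beetle Callosobruchus maculatus, out of 29812 genes in the deposited table (0.221%). A gene belonged to the set when its median level in males was at least 2 CPM (the count of the gene after scaling the library total to 1000000) in abdomens and likewise in combined heads and thoraces. Its male median also had to be at least 4 times the female median in each body part, and its male head and thorax median had to exceed 0.02 times its male abdomen median. Each median was taken over 6 libraries, virgin and mated together. The genes were thus chosen by their levels in these 24 libraries, so sex differences and the male body part ratio are given below as a description, with no test. By the same thresholds 1568 genes were strongly male-biased in abdomens and 189 in heads and thoraces.

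The libraries came from beetles of the South India strain and form 8 groups of 3, namely virgin males, mated males, virgin females and mated females, each as abdomens and as heads with thoraces. Total RNA was used, from flash-frozen beetles whose abdomen was cut off on ice. The sources used here do not give the ages, the mating regime, the number of beetles pooled for each library, or if cultures were separate. Abdomen and head and thorax libraries of the same number may come from the same beetles, which was not tested. A p-value thus reflects the spread among libraries alone, and that spread may be technical. No marker genes were used to check the labelled body parts, because the files do not pair their assembly IDs with gene names.

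Genes with sex-biased expression are the usual molecular counterpart of differences between males and females that share most of a genome. In beetles the male abdomen holds the testes and the accessory glands, which make sperm and seminal proteins, while the head and thorax hold the brain, eyes, antennae and flight muscles. Genes of the testis and accessory glands are therefore typically found as male-biased in the abdomen alone. Callosobruchus maculatus has X and Y chromosomes, with the Y carried by males; the genes were not placed on chromosomes here. No function is attached to any ID below, and a part of an ID such as TR6043|c1 names an assembly component, a cluster of sequences that the assembler could not separate fully, within which _g numbers count the genes.

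Library totals ran from 7805440 to 10171662 counts, so that 2 CPM rest on 15.6 to 20.3 counts per library. Spill of abdominal RNA into head and thorax libraries was followed through 980 other genes. They met the abdomen thresholds and stood at or below 0.02 of the abdomen level in male heads and thoraces. These genes were chosen by their medians in the same libraries, so low sums in most male heads and thoraces follow from the choice. The sums thus compare libraries and do not measure the amount of spill. The 980 genes summed to 262662 to 295256 CPM in male abdomens and to 739 to 1106 CPM in female libraries. In male heads and thoraces they summed to 491 to 2098 CPM in 5 libraries and to 7653 CPM in virgin replicate 1, which is 2.74% of the mean over male abdomens (the second highest was 0.752%). In 2 more head and thorax libraries, virgin male replicate 2 and mated female replicate 3, members described below stood far above the rest of their group. A bulk level cannot tell more cells of a kind from more RNA per cell.

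In male abdomens the median level of the 66 genes was 12.8 CPM, with a range over genes from 2.35 to 958 CPM. In male heads and thoraces it was 16.8 CPM, with a range from 2.06 to 1259 CPM. In females the corresponding medians were 0.752 CPM in the abdomen (0 to 59.3) and 1.39 CPM in the head and thorax (0 to 144). The heat map of all libraries shows this as bright male blocks and dark female blocks in both parts, with dark cells inside the male blocks for a minority of genes. Summed over the set, the genes made up 4307 ± 353 CPM in virgin and 4188 ± 350 CPM in mated male abdomens, and 6225 ± 1493 CPM and 5544 ± 401 CPM in virgin and mated male heads and thoraces (SD, n = 3 each). In females the sums were 274.5 ± 11 CPM and 340.3 ± 27.0 CPM in virgin and mated abdomens, and 848 ± 72.8 CPM and 611 ± 149 CPM in virgin and mated heads and thoraces (SD, n = 3 each). Part of these sums comes from TR45058|c0_g1, TR45430|c1_g4 and TR45430|c1_g5, which vary widely between libraries and reach 2518 CPM together in virgin male head and thorax replicate 2. Without them male heads and thoraces held 5255 ± 929 CPM in virgins and 5482 ± 440 CPM after mating, so the order of these means turns. Female abdomens then held 266.1 ± 6.90 and 274.9 ± 18.6 CPM, and female heads and thoraces 845.1 ± 73.5 and 500 ± 39.6 CPM, in virgin and mated beetles (SD, n = 3 each). In these heads and thoraces TR51689|c0_g2 alone held 261.9 ± 59.4 CPM in virgins and 53.6 ± 21.2 CPM after mating. Without it as well, the sums there were 583.2 ± 18.1 and 446.4 ± 20.3 CPM. The sums in female abdomens were then 233.3 ± 3.27 and 262.2 ± 18.4 CPM.

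**Figure D1:**
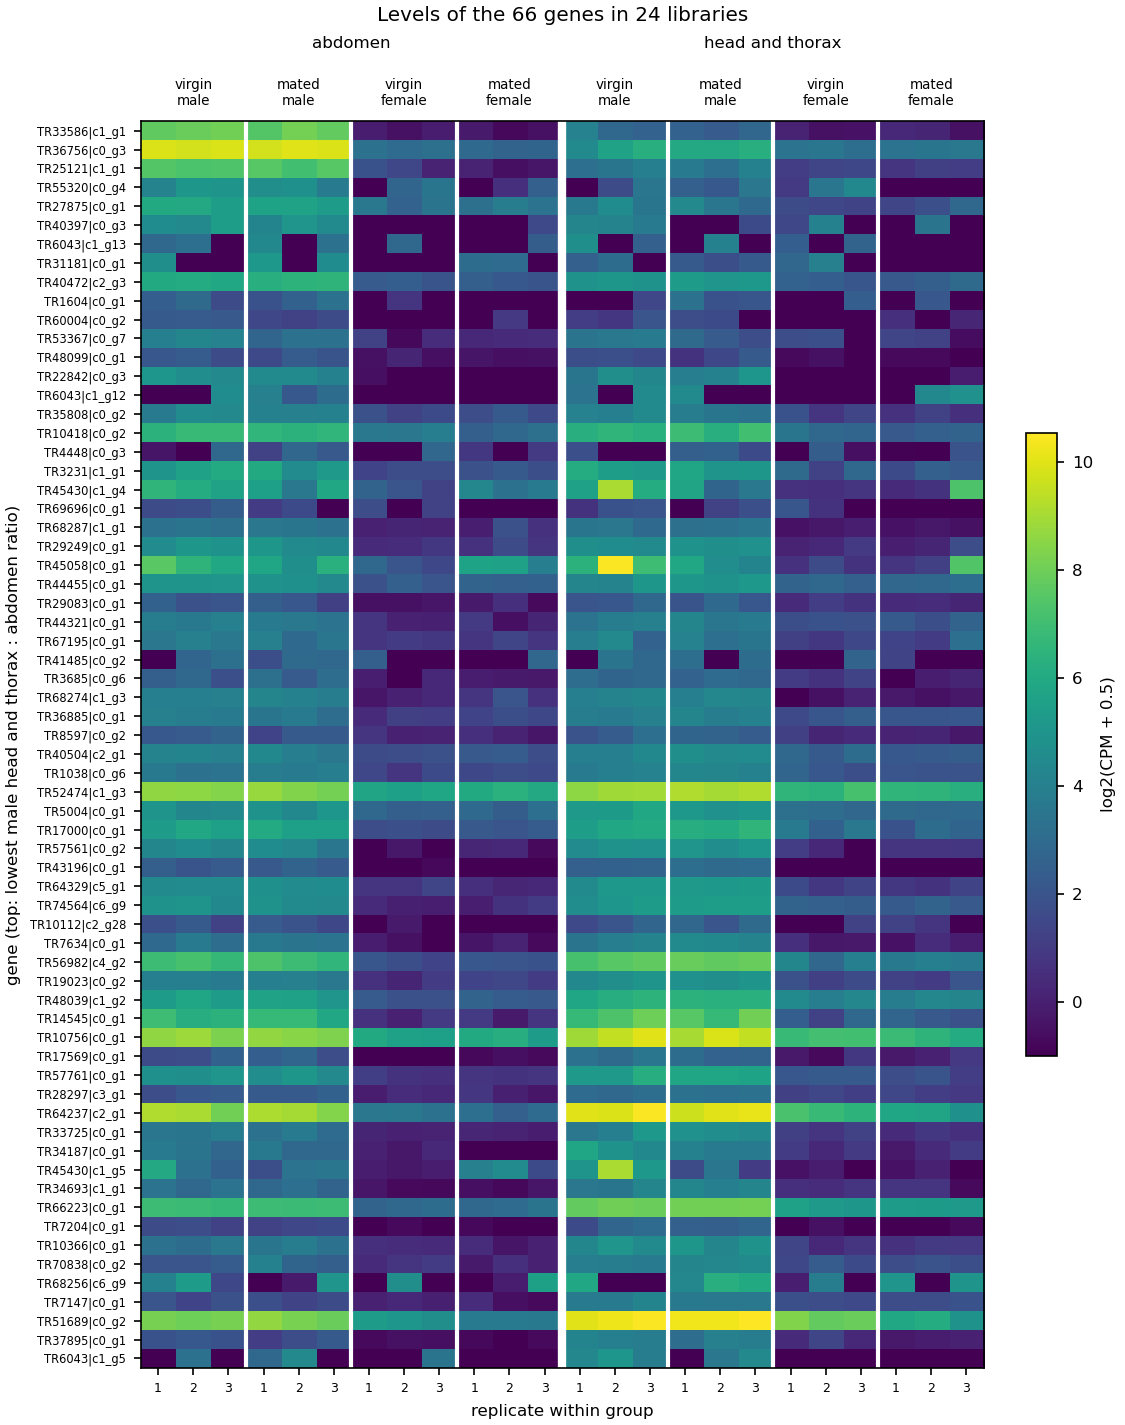
Level of each of the 66 genes (rows, from the lowest to the highest male head and thorax to abdomen ratio) in each of the 24 libraries (columns, 3 replicates per group), as log2(CPM + 0.5). Male columns are brighter than female columns in both body parts, and 12 genes fall below 3 counts in at least 1 male library.

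For 53 genes the female median was above 0 in both parts, so that a sex ratio can be formed. Their male to female ratio had a median of 14.8 in the abdomen (4.17 to 748) and 8.72 in the head and thorax (4.02 to 87.9), and was larger in the abdomen for 36 of the 53. In the abdomen all 6 male libraries lay above all 6 female libraries for 55 of the 66 genes. Among the 9888 genes at 2 CPM or more in both male parts 23.9% did so. In the head and thorax this was so for 50 of the 66 (14.1% of the 9888), and in both parts for 49 of the 66 (8.98% of the 9888). The rule used this contrast, so nothing is read from these shares. When virgin and mated libraries were kept apart, with 3 libraries a group, the male mean was at least 4 times the female mean for 59 genes in virgin and 58 in mated abdomens, and for 52 in virgin and 55 in mated heads and thoraces.

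The genes with the highest smaller value of the male medians were TR64237|c2_g1, TR52474|c1_g3, TR10756|c0_g1, TR51689|c0_g2, TR56982|c4_g2, TR66223|c0_g1, TR14545|c0_g1 and TR10418|c0_g2. CPM is not divided by transcript length, so the order among genes is an order of read counts only. TR64237|c2_g1 stood at 274, 527 and 567 CPM in male abdomens (lowest, median and highest of 6 libraries) and at 805, 1052 and 1434 CPM in male heads and thoraces. In females it stood at 5.27, 9.02 and 11.7 CPM in the abdomen and at 27.0, 72.1 and 149 CPM in the head and thorax. Both sexes thus had more of it in the head and thorax, and no female library reached a male library of its body part.

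TR14545|c0_g1 was the most male-limited of these 8 by the ratio of medians. It ranged from 58.7 to 123 CPM in male abdomens (median 95.9) against 0.398 to 1.47 CPM in female abdomens (median 1.12). In heads and thoraces it ranged from 106 to 275 CPM in males (median 172) and from 1.96 to 6.69 CPM in females (median 4.58). TR56982|c4_g2 had a similar pattern, with 119 and 212 CPM as male medians in the abdomen and the head and thorax and 3.42 and 14.2 CPM as female medians.

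TR66223|c0_g1 varied little between libraries of a sex and body part. It kept within 104 to 121 CPM in male abdomens and 216 to 280 CPM in male heads and thoraces, and within 5.80 to 10.5 CPM and 34.3 to 47.9 CPM in the same parts of females. TR52474|c1_g3 and TR10756|c0_g1 kept a substantial level in females. TR52474|c1_g3 had male medians of 364 CPM in the abdomen and 500 CPM in the head and thorax and female medians of 59.3 and 91.5 CPM. TR10756|c0_g1 had male medians of 380 and 712 CPM and female medians of 55.8 and 113 CPM. A second gene of its component, TR10756|c0_g3, stood at 763 CPM in male and 251 CPM in female abdomens, and at 1018 and 512 CPM in male and female heads and thoraces, so that the component summed over both genes fell short of the 4-fold threshold.

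The division between male body parts was even for most of the set. The ratio of the male head and thorax median to the male abdomen median had a median of 1.245 over the 66 genes, with quartiles at 0.904 and 1.93. It exceeded 1 for 43 genes and 2 for 13, lay between 0.5 and 2 for 44 (66.7%), and fell below 0.5 for 9 and below 0.1 for 3. Among the other 9822 genes at 2 CPM or more in both male parts the median ratio was 1.008, the quartiles were 0.743 and 1.35, and 79.4% lay between 0.5 and 2. The rule used both male levels, so this is a description. In the scatter of the male body parts, the cloud lies along the line of equal levels and 3 genes sit far below it.

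**Figure D2:**
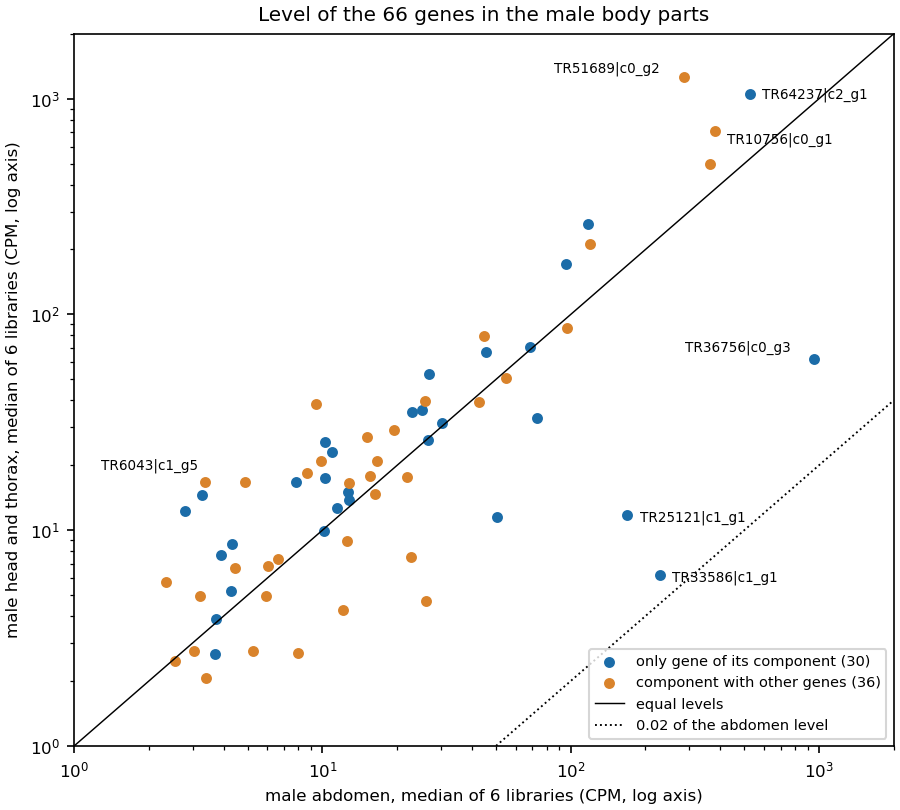
Median level of the 66 genes in male abdomens (x axis) and male heads and thoraces (y axis), each over 6 libraries in CPM on log axes. Blue points are the only gene of their assembly component (30 genes) and orange points share it with other genes (36 genes), the solid line marks equal levels and the dotted line 0.02 of the abdomen level; TR36756|c0_g3, TR25121|c1_g1 and TR33586|c1_g1 lie nearest to the dotted line.

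The 4 genes with the lowest ratio were TR33586|c1_g1 (0.027), TR36756|c0_g3 (0.0646), TR25121|c1_g1 (0.0694) and TR55320|c0_g4 (0.18). TR36756|c0_g3 had the highest male abdomen level of the set, at 974, 863 and 941 CPM in virgin and 869, 1003 and 987 CPM in mated males. Its heads and thoraces read 22.4, 49.0 and 76.4 CPM in virgin and 61.6, 62.0 and 78.2 CPM in mated males, against 8.39 to 11.9 CPM in females. Its lowest male head and thorax value was that of virgin replicate 1, the library with the highest sum of the 980 abdominal genes. TR25121|c1_g1 stood at 8.92 CPM in that library and at 8.84 to 16.2 CPM in the other 5, against 132 to 189 CPM in male abdomens. The part of abdominal RNA in the head and thorax levels of TR36756|c0_g3 and TR25121|c1_g1 was not tested.

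TR33586|c1_g1 behaved differently across those libraries. It stood at 16.7 CPM in virgin male head and thorax replicate 1 and at 4.48 to 6.70 CPM in the other 5, with 175 to 281 CPM in male abdomens and at most 0.712 CPM in any female library. The part of abdominal RNA in its level was not tested, and its transcripts are described further below. TR55320|c0_g4 was erratic, with 12.5 to 34.5 CPM in male abdomens, 0 to 11.6 CPM in male heads and thoraces and 0 to 20.6 CPM in female heads and thoraces, and it shares its component with 3 other genes.

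At the other end, the 4 highest ratios were those of TR6043|c1_g5 (4.98), TR37895|c0_g1 (4.45), TR51689|c0_g2 (4.42) and TR7147|c0_g1 (4.40). TR51689|c0_g2 combined a high ratio with a high level, with 240 to 408 CPM in male abdomens and 1044 to 1489 CPM in male heads and thoraces. TR37895|c0_g1 stood at 1.67 to 4.24 CPM in male abdomens and 8.09 to 18 CPM in male heads and thoraces, against at most 0.218 CPM and 2.18 CPM in the same parts of females. TR7147|c0_g1 stood at 1.97 to 3.63 and 11.9 to 18.2 CPM in the male parts and at 0.107 to 0.885 and 2.43 to 3.25 CPM in the female parts. In these 3 genes the head and thorax exceeded the abdomen in every male library. TR6043|c1_g5 did not share this, with 0, 9.76 and 0 CPM in virgin and 6.75, 21.4 and 0 CPM in mated male abdomens, and 19.5, 32.6, 14.1, 0, 11.3 and 20.8 CPM in male heads and thoraces.

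That on-and-off pattern set apart a minority of the set. For 12 genes the count fell below 3 in at least 1 male library, and each of these 12 shares its assembly component with other genes. Of the 10 genes with a female median of 0 in both parts, 7 were among these 12. No gene was without a count in all 12 female libraries. The nearest was TR43196|c0_g1, with 1 count in 1 female library and 567 counts over the 12 male libraries, where it ran from 3.51 to 5.85 CPM in abdomens and from 5.38 to 8.60 CPM in heads and thoraces.

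Sharing a component was common in the set. Of the 66 genes, 36 (54.5%) lie in a component with other genes, and 38 (57.6%) have a single transcript. Among the other 9822 genes at 2 CPM or more in both male parts these shares were 36.1% and 39.9%. The sources used here do not say how the counting program divided reads between near-identical genes, so the split within a component is uncertain. The 63 components of the set include 33 with more than 1 gene, and when the counts of a whole component were summed, 11 of these 33 met the rule. Together with the 30 components of a single gene, this left 41 of the 66 genes in components that met it. The components hold 88 other genes, of which 49 reach 2 CPM in a sex and body part; 25 of these 49 were under 4-fold between the sexes in both parts.

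The component with most members shows the pattern plainly. TR6043|c1 holds 15 genes, of which TR6043|c1_g5, TR6043|c1_g12 and TR6043|c1_g13 belong to the set. TR6043|c1_g12 stood at 0, 0 and 24 CPM in virgin and 15.9, 4 and 7.91 CPM in mated male abdomens, at 0 in all 6 female abdomens, and at 20.4 and 28.1 CPM in 2 mated female heads and thoraces. TR6043|c1_g13 ranged from 0 to 20.4 CPM in male abdomens and from 0 to 26.2 CPM in male heads and thoraces, and reached 7.03 CPM in a female abdomen. Summed over its 15 genes the component had similar levels in both sexes, with medians of 148 CPM in male and 118.5 CPM in female abdomens and 130 CPM in male and 131.5 CPM in female heads and thoraces. The sums ranged from 99.3 to 165 CPM over all 24 libraries, while the 3 genes together ranged from 0 to 55.7 CPM.

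Mating could be tested, since the rule pooled virgin and mated libraries of a sex. All 66 genes passed the filter on low counts in both body parts. The filter took male and female libraries of a body part together, so a gene could pass through its male counts alone. A gene is called where the adjusted p of edgeR's quasi-likelihood test, over all genes tested in the body part, is 0.05 or less. In male abdomens 0 of the 66 genes were called, where 2.77% of all 14563 genes tested were. At an unadjusted p of 0.05 or less 3 genes passed (4.55%, against 17.5% of all genes). DESeq2 called 2 of the 44 members to which it gave an adjusted p (4.55%, against 10.3% of all such genes) and limma-voom called 2 of 66 (3.03%, against 2.68%). The median log2 fold change of mated over virgin males was -0.13, against -0.06 over all genes tested. In male heads and thoraces 0 of the 66 were called (0.0766% of all 13051 genes tested), and the median was 0.07 against -0.02. An unadjusted p of 0.05 or less was found for 6 (9.09%, against 9.63% of all genes). DESeq2 called 1 of 28 (3.57%, against 2.81%) and limma-voom 0 of 66 (0.0306% of all genes).

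In female abdomens the level these genes keep in females did change with mating for a few. Of the 66 genes 6 were called, 3 higher and 3 lower in mated females, where 14.5% of all genes tested were called (8.18% higher and 6.28% lower). The share of the set was 9.09%. It is not like for like with that background, because the rule kept female levels of members low (median 0.752 CPM in abdomens). Nothing is read from the difference, and the same holds for the other shares in females and for the interaction below. The balance of directions rests on the scaling: over all genes 1191 were higher and 915 lower with TMM, 997 and 1178 with the size factors of DESeq2, and 672 and 2270 with library size only. The members split into 3 and 3, 3 and 3, and 3 and 5 under these scalings. An unadjusted p of 0.05 or less was found for 21 members (31.8%, against 28.4% of all genes). DESeq2 called 19 of 65, 12 higher and 7 lower (29.2%, against 25.8%), and limma-voom 1 of 66, which was lower (1.52%, against 18.8%). Of the 19, TR6043|c1_g5, TR1604|c0_g1, TR69696|c0_g1 and TR34187|c0_g1 had no count in mated female abdomens. TR40397|c0_g3, TR60004|c0_g2 and TR31181|c0_g1 had none in virgin ones. The median log2 fold change was 0.24, against 0 over all genes tested. In 11 members a whole female group was without a count. With these set against a floor of 3 counts, and 2 of them under the floor left out, the median was 0.30. In female heads and thoraces 1 of the 66 was called, which was lower (0.935% of all genes tested in either direction, 0.314% lower). The median there was -0.08 against -0.01. An unadjusted p of 0.05 or less was found for 10 members (15.2%, against 11.6% of all genes). DESeq2 called 9 of 54 (16.7%, against 5.19%) and limma-voom 1 of 66 (1.52%, against 0.95%). Of the 9, TR6043|c1_g12 stood near 0 CPM in virgin females. TR6043|c1_g13, TR31181|c0_g1 and TR55320|c0_g4 stood at or near 0 CPM in mated females. TR45430|c1_g4 and TR45058|c0_g1 were high only in mated replicate 3 (160 and 168 CPM). The others were TR51689|c0_g2, TR64237|c2_g1 and TR3685|c0_g6.

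Without regard to a test, all virgin libraries lay above or below all mated libraries for 17 of the 66 genes in female abdomens (25.8%, against 40.7% of all genes tested) and for 7 in female heads and thoraces (10.6%, against 19.8%). In males this was so for 7 genes in the abdomen (10.6%, against 19.8%) and 17 in the head and thorax (25.8%, against 16.1%). Separate groups of a single gene below are read against these shares.

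TR51689|c0_g2 fell in both body parts of mated females. Virgin female abdomens held 40.5, 32.7 and 25.4 CPM and mated female abdomens 12.6, 13.2 and 12.3 CPM. Virgin female heads and thoraces held 329, 218 and 239 CPM and mated ones 59.5, 71.2 and 30.1 CPM. The virgin and mated females do not overlap in either part. Both parts may come from the same beetles, so they may not be independent. By edgeR the log2 fold change was -1.25 in abdomens (SE 0.226, adjusted p = 0.0061) and -2.23 in heads and thoraces (SE 0.302, adjusted p = 0.0137).

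In males no change of this gene was called. Virgin male abdomens held 286, 255 and 284 CPM of TR51689|c0_g2 and mated ones 408, 302 and 240 CPM. Virgin male heads and thoraces held 1044, 1200 and 1421 CPM and mated ones 1266, 1253 and 1489 CPM. The log2 fold changes were 0.17 (SE 0.176, edgeR adjusted p = 0.69) and 0.08 (SE 0.28, edgeR adjusted p = 0.961). The ratio of male to female means was 8.37 in virgin and 24.9 in mated abdomens, and 4.67 in virgin and 24.9 in mated heads and thoraces. The abdomen call held in each of 20 alternative settings (adjusted p 7.1e-09 to 0.0246). The head and thorax call ended in 2 of 21, without mated female head and thorax replicate 1 (0.0559) and with a replicate block (0.0568). The other gene of its component, TR51689|c0_g1, had no count in any female library and 9.63 counts over all male libraries.

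TR10418|c0_g2 and TR34187|c0_g1 were the other genes lower in mated female abdomens. TR10418|c0_g2 went from 11.7, 11.3 and 14.9 CPM in virgin to 5.21, 6.96 and 9.09 CPM in mated female abdomens, without overlap, a log2 fold change of -0.72 (SE 0.198, edgeR adjusted p = 0.0352). This call ended without mated female abdomen replicate 1 or 2 or virgin female abdomen replicate 2 or 3 (adjusted p 0.063 to 0.116) and with limma-voom (0.0616). In female heads and thoraces its change was -0.54 (SE 0.3, edgeR adjusted p = 0.537). TR10418|c0_g1, in the same component, stood at 68.2 CPM in male and 85.3 CPM in female abdomens.

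TR34187|c0_g1 had 15 counts in all over the virgin female abdomens, at 0.527, 0.327 and 0.714 CPM, and none in the mated ones. It passed the filter on low counts through its male libraries. Against a floor of 3 counts over the mated group its level was 5.20-fold lower, which is no strict bound on so few counts. The edgeR adjusted p was 0.00856, and limma-voom gave an adjusted p of 0.249, which ended the call. Its female head and thorax values overlapped, with 1.55, 0.738 and 1.46 CPM in virgin and 0.356, 0.791 and 1.51 CPM in mated females. Virgin male heads and thoraces held 56.8, 30.4 and 20.4 CPM and mated ones 16.3, 13.3 and 12.7 CPM. Those groups do not overlap either, and the log2 difference was -1.39 (SE 0.375, edgeR adjusted p = 0.297; called by DESeq2 at 0.0128).

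TR68274|c1_g3 was higher in mated female abdomens. It stood at 0.316, 0.545 and 0.714 CPM in virgin and 1.18, 3.58 and 1.07 CPM in mated females, a log2 fold change of 1.98 (SE 0.489, edgeR adjusted p = 0.0226). The groups do not overlap, and the highest value is that of mated replicate 2. The call ended without that library or without virgin female abdomen replicate 1 or 2 (adjusted p 0.0747 to 0.0865), and with limma-voom (0.0949). Males held 14.1 to 18.4 CPM in the abdomen and 15.4 to 19.7 CPM in the head and thorax. Its component holds 4 other genes, among them TR68274|c1_g4 at 96.1 CPM in male and 88.3 CPM in female abdomens.

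**Figure D3:**
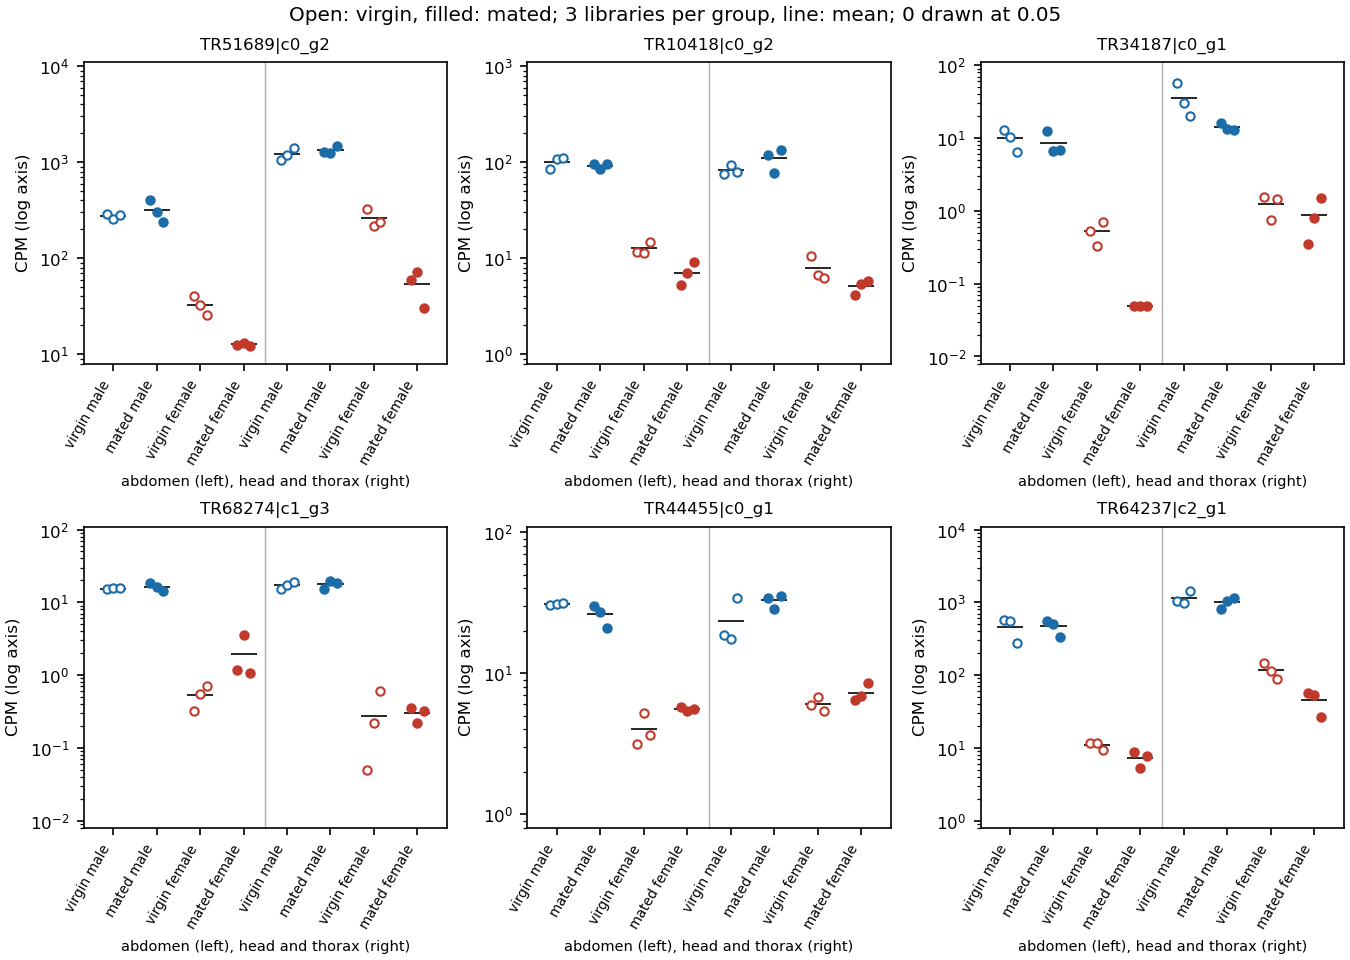
Level in CPM (log axes) of 6 genes in the 8 groups, 3 libraries each, with abdomens to the left and heads with thoraces to the right of the grey line; open points are virgin and filled points mated beetles, blue males and red females, black lines are group means and values of 0 are drawn at 0.05. In TR51689|c0_g2 the female means go from 32.9 to 12.7 CPM in the abdomen and from 262 to 53.6 CPM in the head and thorax while the male means are 275 and 317 CPM, and 1222 and 1336 CPM.

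TR64237|c2_g1 was not called in females but had separate virgin and mated groups in both body parts. In heads and thoraces virgin females held 149, 114 and 87.4 CPM and mated females 56.7, 52.9 and 27.0 CPM. The log2 difference was -1.30 (SE 0.322, edgeR adjusted p = 0.122, called by DESeq2 at 0.00268). In female abdomens it stood at 11.6, 11.7 and 9.39 CPM in virgins and 8.65, 5.27 and 7.70 CPM in mated females, a log2 difference of -0.47 (SE 0.425, edgeR adjusted p = 0.526).

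Both other genes higher in mated female abdomens, TR45058|c0_g1 and TR45430|c1_g5, vary widely between libraries of a group, as does TR45430|c1_g4. These 3 genes were set side by side after their values were seen. In female abdomens TR45058|c0_g1 went from 6.75, 3.60 and 2.35 CPM in virgins to 50.9, 47.5 and 14.8 CPM after mating (log2 fold change 3.29, SE 0.759, edgeR adjusted p = 0.0179). TR45430|c1_g5 went from 0.422, 0.327 and 0.408 CPM to 15.6, 22.9 and 2.48 CPM (log2 fold change 5.22, SE 1.41, edgeR adjusted p = 0.0345). TR45430|c1_g4 stood at 5.80, 3.60 and 1.94 CPM in virgin and 19.9, 9.35 and 12.6 CPM in mated beetles, which did not pass (log2 2.01, SE 0.684, edgeR adjusted p = 0.0788).

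The same 3 genes stood highest together in particular libraries. In virgin male heads and thoraces TR45058|c0_g1 read 83.9, 1426 and 125 CPM, TR45430|c1_g4 read 48.5, 546 and 69.5 CPM and TR45430|c1_g5 read 30.7, 546 and 34.8 CPM, all highest in replicate 2. In mated female heads and thoraces TR45058|c0_g1 read 1.19, 1.75 and 168 CPM and TR45430|c1_g4 read 0.831, 1.09 and 160 CPM, while TR45430|c1_g5 stayed at 0.545 CPM or below. Over all genes, 7 in virgin male head and thorax replicate 2 reached 50 CPM and 5 times the higher of the other libraries of the group, and 3 of these 7 are members. In mated female head and thorax replicate 3 the count was also 7, with 2 members. Neither library enters the abdomen fit. Such genes were more numerous in some other head and thorax libraries. There were 26 in virgin male replicate 1 (1 member), 14 in virgin female replicate 3 and 13 in mated male replicate 1 (0 members each).

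These calls depended on the libraries used. TR45058|c0_g1 lost its call in 5 of 20 alternatives, namely limma-voom (adjusted p = 0.107) and the fits without mated female abdomen replicate 1 or 2 or virgin female abdomen replicate 2 or 3 (0.0555 to 0.0707). TR45430|c1_g5 lost its call in 8 of 20, including limma-voom (adjusted p = 0.45) and 5 of the 6 fits that left out a female abdomen library (0.0751 to 0.121). The exception was the fit without mated replicate 3. TR45430|c1_g5 shares its component with TR45430|c1_g4 and 3 further genes. Summed over its 5 genes that component held 146.5 to 179 CPM in female abdomens and 170 to 312 CPM in male abdomens.

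**Figure D4:**
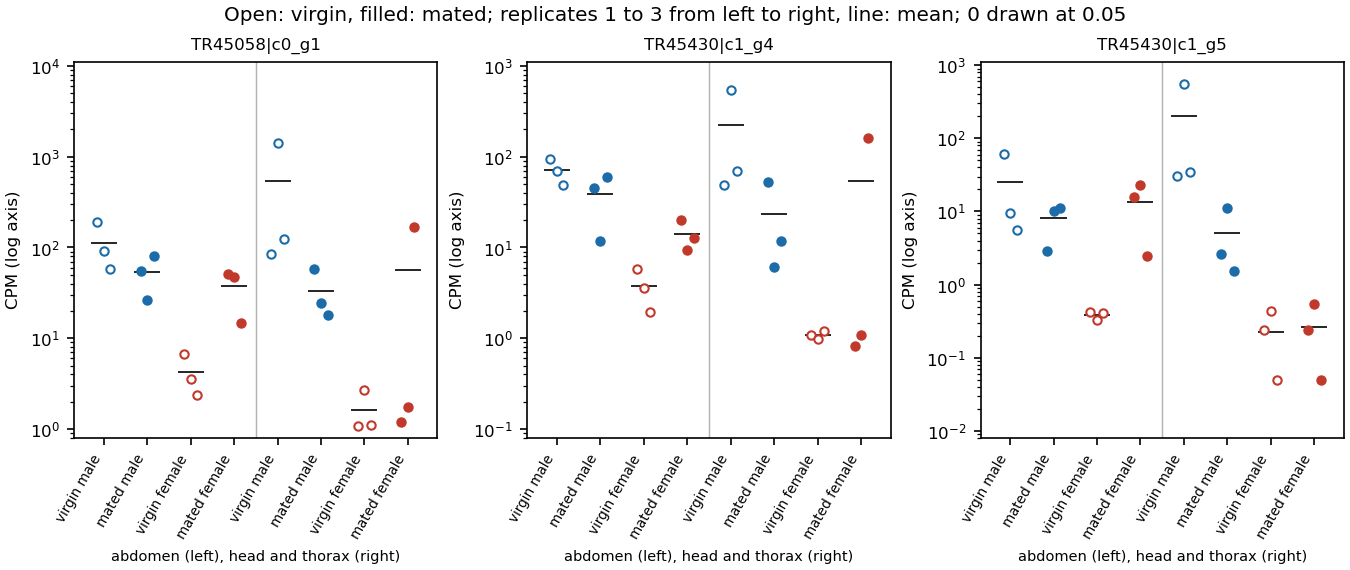
Level in CPM (log axes) of TR45058|c0_g1, TR45430|c1_g4 and TR45430|c1_g5 in the 8 groups, with replicates 1 to 3 from left to right, open points virgin, filled points mated, blue males, red females, lines for group means and 0 drawn at 0.05. Virgin male head and thorax replicate 2 stands highest in all 3 panels, at 1426, 546 and 546 CPM.

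The sexes' mating effects were compared by the sex-by-mating interaction, given as the female minus the male log2 fold change. In the abdomen 5 of the 66 genes were called, 3 with a more positive and 2 with a more negative effect in females, where 8.28% of all genes tested were called (5.23% and 3.06%). Here too the balance over all genes rests on the scaling, with 761 more positive and 445 more negative by TMM, 594 and 517 by the size factors of DESeq2, and 302 and 885 by library size only. An unadjusted p of 0.05 or less was found for 19 members (28.8%, against 22.6% of all genes). DESeq2 called 13 of 63 (20.6%, against 14.6%) and limma-voom 1 of 66 (1.52%, against 7.86%). The more negative effects in females were those of TR34187|c0_g1 (-4.86, SE 1.01, edgeR adjusted p = 0.0215) and TR51689|c0_g2 (-1.41, SE 0.287, edgeR adjusted p = 0.015). The value of TR34187|c0_g1 rests on mated female abdomens without a count and is no measure of size. The more positive effects were those of TR45430|c1_g5 (6.94, SE 1.72, edgeR adjusted p = 0.0348), TR45058|c0_g1 (4.40, SE 0.944, edgeR adjusted p = 0.0195) and TR44455|c0_g1.

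TR44455|c0_g1 stood at 3.16, 5.23 and 3.67 CPM in virgin and 5.80, 5.37 and 5.56 CPM in mated female abdomens. Virgin male abdomens held 30.7, 31.2 and 31.6 CPM and mated ones 29.9, 27.4 and 21.1 CPM. The groups do not overlap in either sex. Neither sex was called on its own (log2 0.59, SE 0.191, edgeR adjusted p = 0.0616 in females; -0.29, SE 0.147, edgeR adjusted p = 0.35 in males), and the interaction was 0.88 (SE 0.241, edgeR adjusted p = 0.0487). That call ended in 15 of 20 alternatives, among them both other scalings of the libraries and 10 of the 12 fits that left out a library (adjusted p 0.0715 to 0.166), and limma-voom (0.0698).

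Of the other interaction calls, that of TR51689|c0_g2 held in each of 20 alternatives (highest adjusted p 0.0413). TR34187|c0_g1 lost its call in 6 of 20, namely limma-voom (adjusted p = 0.39) and the fits without any 1 mated female abdomen library or virgin female abdomen replicate 1 or 3 (0.0505 to 0.0565). TR45058|c0_g1 lost its call in 3 of 20, with limma-voom (adjusted p = 0.0889) and without virgin female abdomen replicate 2 or 3 (0.0535 to 0.0551). TR45430|c1_g5 lost its call in 11 of 20, among them limma-voom (adjusted p = 0.457) and 8 of the 12 fits without a library (0.0586 to 0.0944). In heads and thoraces 0 of the 66 genes were called (0.107% of all genes tested). An unadjusted p of 0.05 or less was found for 10 members (15.2%, against 9.39% of all genes). DESeq2 called 3 of 27 (11.1%, against 3.99%) and limma-voom 0 of 66 (0.115% of all genes). The lowest adjusted p there was that of TR51689|c0_g2 (log2 -2.31, SE 0.409, edgeR adjusted p = 0.0877).

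The division of a gene among its transcripts was not part of the rule and was tested between the male body parts with edgeR's test of differential transcript use, with mating status as an added factor in the 12 male libraries. Of 5617 genes tested 10.3% were called, and of the 21 members that could be tested 2 were (9.52%), a share close to that background. For 16 of the 21 the most abundant transcript was the same in both parts. The 2 called genes were TR33586|c1_g1 and TR70838|c0_g2, and both calls held in each of 15 alternatives.

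In TR33586|c1_g1 the transcript i4 made up 1.24, 0.777 and 0.825% of the gene's transcript counts in virgin and 1.72, 0.749 and 1.58% in mated male abdomens. The heads and thoraces of virgin males gave 32.1, 91.0 and 81.8% and those of mated males 78.7, 91.4 and 94.2%, so that the mean went from 1.15 ± 0.428% to 78.2 ± 23.4% (SD, n = 6 each, edgeR adjusted p = 0.00992). The low value is that of virgin replicate 1, the library with the highest sum of abdominal genes. As a level, i4 ranged from 1.87 to 3.42 CPM in male abdomens and from 4.10 to 6.22 CPM in male heads and thoraces, where virgin replicate 1, at 5.35 CPM, lay among the rest. The abundant abdominal transcripts i2 and i3 stood at 92.5 ± 16 and 89.6 ± 18.4 CPM in male abdomens (SD, n = 6). In male heads and thoraces they reached at most 3.99 and 4.98 CPM, in virgin replicate 1. Over female libraries i4 averaged 0.121 CPM in abdomens and 0.0595 CPM in heads and thoraces.

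In TR70838|c0_g2 the transcript i1 made up 0 to 11.8% of the transcript counts in male abdomens and 43.7 to 62.5% in male heads and thoraces. The means were 4.53 ± 5.19% and 53.5 ± 6.55% (SD, n = 6 each, edgeR adjusted p = 0.00421). Its level was 0 to 1.27 CPM in male abdomens and 7.04 to 12.4 CPM in male heads and thoraces, while the transcript i2 had means of 5.39 and 5.94 CPM in these parts. The abdomen shares rest on few reads, with at most 11.5 counts of i1 in a library. Next in line were TR40472|c2_g3 (edgeR adjusted p = 0.0502) and TR36756|c0_g3 (edgeR adjusted p = 0.0913), and without virgin male head and thorax replicate 1 both passed (0.0185 and 0.0212), which made 4 calls.

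**Figure D5:**
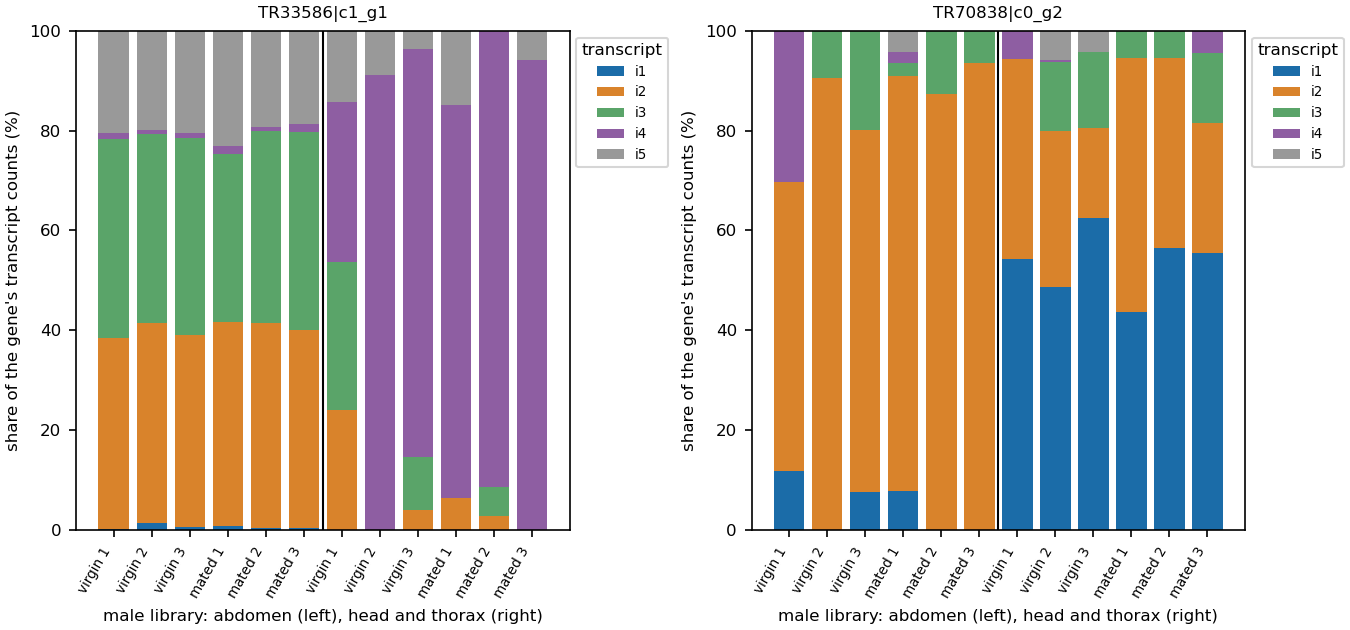
Share of each transcript (colours) in the transcript counts of TR33586|c1_g1 (left) and TR70838|c0_g2 (right), in percent, for each of the 12 male libraries, with abdomens left and heads with thoraces right of the black line. The i4 share of TR33586|c1_g1 is at most 1.72% in abdomens and 32.1 to 94.2% in heads and thoraces, and the i1 share of TR70838|c0_g2 goes from at most 11.8% to 43.7 to 62.5%.

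The thresholds cut through a continuum in some directions and not in others. For the sex ratio in the head and thorax, TR36885|c0_g1 (4.02) and TR48039|c1_g2 (4.11) lay just inside and TR56396|c0_g3 (3.96) and TR42553|c0_g1 (3.91) just outside, and 339 genes failed this threshold alone. For the sex ratio in the abdomen, TR5004|c0_g1 (4.17) and TR4448|c0_g3 (4.50) lay inside and TR23078|c0_g6 (3.73) and TR25051|c0_g1 (3.73) outside, with 25 genes failing it alone.

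For the male abdomen level, TR7204|c0_g1 (2.35 CPM) and TR69696|c0_g1 (2.54 CPM) lay inside and TR25830|c0_g2 (1.99 CPM) and TR70837|c0_g1 (1.98 CPM) outside, with 44 genes failing it alone. For the male head and thorax level, TR60004|c0_g2 (2.06 CPM) and TR69696|c0_g1 (2.47 CPM) lay inside and TR64525|c0_g2 (1.92 CPM) and TR37369|c2_g6 (1.34 CPM) outside, with 35 failing it alone. The ratio of the male parts left out 25 genes by itself. TR33586|c1_g1 (0.027) and TR36756|c0_g3 (0.0646) lay inside that limit, and TR33543|c0_g2 (0.0138) and TR3600|c2_g1 (0.0101) outside.

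Of the 189 genes strongly male-biased in the head and thorax, 123 did not join the set. Their male abdomen median was under 2 CPM in 73, their abdomen sex ratio under 4 at 2 CPM or more in 25, and 25 failed only on the ratio of the male parts.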

How the data were processed

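The authors deposited a gene table and a transcript table of estimated counts (expected counts) that were not normalised, with the lanes of a library merged into a single column. Of the gene values 14.1% have decimals, and 23.0% of the values of the 66 genes do. The submitters' processing notes name Bowtie 0.12.6, Trimmomatic 0.3, cutadapt 1.2.1 and FastQC 0.11.2, and per the labels' protocols the library kit was stranded. For the counting program, the reference and the use of strand the entry is "not given in the sources used here", so antisense and near-identical genes carry that uncertainty. In 12 of the 66 genes the gene count and the sum of its transcripts differ by more than 0.5 in a library.

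CPM were computed from column totals. The tests on rounded counts used R 4.3.3 and edgeR 4.0.16 (TMM, filterByExpr by group, robust quasi-likelihood test, 1 mean per group, the 12 libraries of a body part together), with Benjamini-Hochberg adjustment over all genes and a threshold of 0.05. TMM factors were 0.878 to 1.19. Transcript use was tested with diffSpliceDGE of edgeR. SE was derived from the log2 fold change and the F statistic. Alternatives used DESeq2 1.42.0, limma 3.58.1 (voom), other scalings and filters, a replicate block, the transcript table, and each library left out. The fits were tested on simulated data.

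The 66 genes, the lists and the rules were chosen with earlier results of these data known. Named genes are the 8 of highest smaller male median, the 4 highest and 4 lowest male body part ratios, called members (up to 6 per direction and comparison), neighbours of the thresholds, members sharing a component, and called members for transcript use. The 3 variable genes, TR43196|c0_g1, TR64237|c2_g1 after mating and partner genes were singled out after their values were seen. Libraries of a group differed beyond sampling noise (lowest chi-square per degree of freedom 5.58). Intervals were not computed, and depth limits genes near 2 CPM.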

Additional observations from a re-analysis of the deposited data

Results flagged for a closer look

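Each of 5 genes stood out because the mating effect in abdomens differed between females and males by a test of that difference (edgeR, sex-by-mating interaction, female minus male log2 fold change). The value was -4.86 for TR34187|c0_g1, which had no count in mated female abdomens and passed the filter on its male counts. It was -1.41 for TR51689|c0_g2. It was 0.88 for TR44455|c0_g1, 6.94 for TR45430|c1_g5 and 4.40 for TR45058|c0_g1. The call of TR51689|c0_g2 held in all 20 alternatives run. The other calls ended in 3 to 15 of 20, which the results above give gene by gene.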

How the results depend on the processing

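The number of genes found by the rule was 66. It was 35 with a sex ratio of at least 8 and 61 to 72 with a library left out. With the genes of a component summed (chosen after the data were seen), 41 components met the rule. With TMM factors the number of genes was 77, with group means 79 (50 of them shared with the 66), and at 5 CPM 46. With a body part ratio of 0.05 it was 65, and with transcript sums 70.

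DESeq2 called 2 members for mating in male abdomens, 1 in male heads and thoraces, 19 in female abdomens, 9 in female heads and thoraces, and 13 and 3 for the interaction in the abdomen and the head and thorax. limma-voom called 2 in male and 1 in female abdomens, 1 in female heads and thoraces and 1 for the abdomen interaction. The results above give the share of all genes beside each of these counts. Without the low-count filter the abdomen interaction had 3 calls. With library size only the head and thorax interaction had 1 call, TR51689|c0_g2 (-2.42, adjusted p = 0.0369). On that scale the median of all genes moved by -0.11 in female abdomens, where members split into 3 higher and 5 lower, and by -0.15 for the abdomen interaction and -0.12 for that of the head and thorax.

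With a library left out, calls ranged from 0 to 1 in male abdomens (1 without virgin female abdomen replicate 2), 0 to 0 in male heads and thoraces, 2 to 9 in female abdomens (2 without mated female abdomen replicate 2), 0 to 1 in female heads and thoraces (0 without mated female head and thorax replicate 1), 2 to 5 for the abdomen interaction, 0 to 0 for that of the head and thorax, and 2 to 4 for transcript use. Without the 3 head and thorax libraries that stand apart (chosen after the data were seen), the calls there were 0, 1 and 0, and TR51689|c0_g2 was at -1.95 (adjusted p = 0.0299). For these fits, and those without the low-count filter or with a replicate block, the share of all genes called is not given. The counts of members thus show only how calls depend on the fit.

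Within a body part, same-numbered replicates did not deviate together. Over 36 pairs of libraries the correlation of deviations from group means ran from -0.068 to 0.116, with 1 over 0.1. The numbers were thus not taken as pairs. An abdomen library was not compared with the head and thorax library of the same number, which may come from the same beetles. The test of transcript use took the 12 male libraries as independent. A replicate block gave 1 call in male heads and thoraces (TR45430|c1_g5, -4.93, adjusted p = 0.0134), 0 in female heads and thoraces and 3 for the abdomen interaction. No called gene turned its direction under any alternative run. The causes of these differences were not tested.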
